A study of Homo sapiens with 31 samples.

Results

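The 37 genes described here encode proteins that copy the genome or supply and control its copying during S phase, and they were picked by symbol from a list of S-phase DNA replication genes. The rule uses no measured value, but the list was drawn up with earlier results of these data known. Each symbol matched 1 Ensembl identifier of the UMI count table, so the genes are 37 of 30667 in all. By role, 8 are licensing genes, 9 belong to the replisome, 4 to the checkpoint group, 4 to repair, 3 to nucleotide supply, 7 to chromatin and 2 are regulators of S-phase entry. All 37 had counts in every one of the 31 libraries and passed the filter on low values in every comparison, with 242 (PRIM1) to 10711 UMIs (TYMS) per gene over all libraries. A UMI is a unique molecular identifier, and CPM is a gene's UMIs scaled to a library of 1000000, with the library size adjusted by the trimmed mean of M-values (TMM) except where raw CPM is named.

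NALM-6 is a human B-cell precursor acute lymphoblastic leukemia line. Its cells were transduced with 1 of 4 lentiviral constructs, in which a short hairpin RNA in a microRNA-30 backbone was expressed from the EF1a or the SFFV promoter, and RNA was sequenced by prime-seq, a 3′ counting protocol, 4, 10 and 13 days after transduction. At days 4, 10 and 13 there were 3, 3 and 3 libraries of EF1a/sh-CTRL, 3, 2 and 2 of SFFV/sh-CTRL, 2, 2 and 3 of EF1a/sh-XIAP, and 2, 3 and 3 of SFFV/sh-XIAP. The sh-CTRL hairpin is directed against eGFP and the sh-XIAP hairpin against XIAP, an inhibitor of caspases. The study names EF1a/sh-XIAP a moderate and SFFV/sh-XIAP a strong XIAP knockdown (KD), from XIAP protein measured by Western blot in NALM-6 cells. All groups therefore carry a lentiviral hairpin, and an untransduced group was not analysed here. The sample labels place the cells in culture and the series design text places them in murine bone marrow, so these sources differ on the setting. For gene expression, the study's methods describe subpopulations sorted 10 and 13 days after transduction and do not name day 4. Nothing states that replicates were separate cultures, and p-values therefore measure only the spread between these samples, which may be technical.

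Before S phase, ORC, CDC6 and CDT1 load a ring of MCM2 to MCM7 on origins, and geminin (GMNN) later blocks loading a second time. CDC45 and GINS turn the ring into a moving helicase, DNA polymerases and their clamp PCNA follow, and ribonucleotide reductase (RRM1, RRM2) and thymidylate synthase (TYMS) supply deoxynucleotides. E2F factors control many of these genes in cycling cells, so their transcripts are widely used as a readout of S phase, while CDKN1A (p21), a target of p53, restrains entry into S phase.

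Total UMIs per library ranged from 312852 to 1153668 (median 603822), and 4 libraries had under 400000: EF1a/sh-CTRL D4 replicate 2, EF1a/sh-XIAP D10 replicate 2, SFFV/sh-XIAP D10 replicate 2 and SFFV/sh-CTRL D13 replicate 1. XIAP itself had 2 to 14 UMIs per library. Strong KD libraries of days 10 and 13 held 8.86 ± 3.06 raw CPM of XIAP (SD, n = 6), and their controls 10.2 ± 4.72 (n = 4). The fitted difference was −0.26 on the log2 scale (standard error 0.395), and the fold had a 95% interval from 0.48 to 1.45, so a reduction was not detectable at this depth. With EF1a/sh-XIAP it was 9.62 ± 1.45 raw CPM (n = 5) against 10.8 ± 4.67 (n = 6) with EF1a/sh-CTRL. The 11 precursor B markers counted here, PAX5, VPREB1 and RAG1 among them, summed to 4373 to 5077 raw CPM in a library. Of 4 markers each, 2 of T cells, 4 of myeloid cells, 2 of erythroid cells and 2 of stroma matched the UMI count table. Those that matched summed to 0 to 6.39, 0 to 25.6, 0 to 5.29 and 0 to 6.91 raw CPM.

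Promoter sequences show what many of these genes share apart from their function. RefSeq promoters (GRCh38.p14, 250 bases before to 50 after the annotated start) were matched for 30 of the 37 genes, and MCM4, MCM5, RPA2, CCNE2, POLD3, ATAD2 and E2F8 were not matched. An E2F word (TTTCCCGC, TTTGGCGC, TTTCGCGC or TTTGCCGC, both strands) was found in 15 of the 30 promoters and in 908 of 27305 promoters (3.33%). The windows below show 8 genes with such a word, chosen because they are abundant members or carry results described later. Other abundant or later described members, NASP, RRM1, RRM2 and CDC45 among them, had no such word. Each is on the gene's own strand, with the E2F word nearest the annotated start in capitals. The promoter of MCM6 holds 4 such words and those of MCM3 and MCM7 hold 2 each. An overlapping TTTGGCGC in the MCM6 window is not marked.
MCM3: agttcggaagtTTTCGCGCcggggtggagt
MCM6: ggtcaggtttgGCGCGAAAtctccagctcc
MCM7: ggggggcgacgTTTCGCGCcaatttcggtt
PCNA: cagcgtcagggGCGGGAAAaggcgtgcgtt
TYMS: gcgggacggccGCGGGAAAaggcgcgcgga
UHRF1: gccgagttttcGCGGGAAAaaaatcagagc
GINS2: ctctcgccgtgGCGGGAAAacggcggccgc
CLSPN: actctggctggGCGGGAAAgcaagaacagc

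The windows lie at chr6:52284728-52284757 (MCM3, minus strand), chr2:135876511-135876540 (MCM6, minus), chr7:100101388-100101417 (MCM7, minus), chr20:5126663-5126692 (PCNA, minus), chr18:657603-657632 (TYMS, plus), chr19:4909476-4909505 (UHRF1, plus), chr16:85688967-85688996 (GINS2, minus) and chr1:35769965-35769994 (CLSPN, minus). The first base of the marked word lay between 4 bases (MCM3) and 86 bases (MCM6) upstream of the annotated start. That start comes from 1 RefSeq promoter per gene and can lie inside the GENCODE gene span, as for UHRF1, whose span is given below. TYMS, PCNA, UHRF1, GINS2 and CLSPN share the 8 letters GCGGGAAA on the gene's strand. A CCAAT word was present in 21 of 30 of these promoters (70.0%) against 35.7% of all promoters. It was as frequent in a list of G2 and mitosis genes (26 of 38, 68.4%), and other replication genes had it in 26 of 53 (49.1%). Median GC content was 65.0% against 58.3% of all promoters, 64.7% of the other replication genes and 62.0% of the G2 and mitosis genes. The E2F word was in 20 of 53 promoters of the other replication genes (37.7%) and in 3 of 38 of the G2 and mitosis genes (7.89%). The word TTTGAA, the core of the CHR element of mitotic genes, was in 1 of 30 (3.33%), against 15.4% of all promoters. It was in 28 of 38 promoters (73.7%) of the G2 and mitosis genes. A word match is a description and not a bound site, and no binding was measured in these libraries.

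TYMS, the most abundant of the 37, averaged 519 CPM over the 31 libraries, followed by the helicase subunit MCM3 at 480 CPM and PCNA at 416 CPM. NASP, a histone chaperone, averaged 364 CPM and UHRF1, which carries DNA methylation through replication, 348 CPM. The other helicase subunits were at 320 (MCM6), 281 (MCM7), 221 (MCM2) and 195 CPM (MCM4 and MCM5), and the reductase subunits RRM2 and RRM1 at 225 and 215 CPM. At the low end stood PRIM1, the primase subunit, at 11.9 CPM, with 3 to 17 UMIs per library. UMIs were counted at transcript 3′ ends, so these are levels per UMI without division by length.

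For most of the 37 genes the spread between libraries was close to counting error. The coefficient of variation of TYMS over all 31 libraries was 4.76%, where counting alone gives 5.75%, and that of MCM3 was 5.76% where counting gives 5.97%. The variance divided by that of counting (chi-square per degree of freedom) ran from 0.637 for USP1, a deubiquitinase of PCNA, to 2.03 for CCNE2, cyclin E2, with a median of 1.07 over the 37 genes. Over the 10390 genes with at least 200 UMIs the median was 1.09. Above counting lay UHRF1 (1.75), UNG, a uracil-DNA glycosylase (1.74), and GMNN (1.56), followed by MCM4 (1.49), EXO1 (1.46), CHAF1B (1.43) and PCNA (1.40). CCNE2 varied by 27.3% against 18.5% from counting, from 22.1 to 86.0 CPM.

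Of all UMIs, the 37 genes took 0.529 to 0.609% of a library (median 0.580%), with a mean of 0.580% ± 0.0192 (SD, n = 31). At days 10 and 13 the share was 0.590% ± 0.0238 (n = 6) with SFFV/sh-XIAP and 0.575% ± 0.0176 (n = 4) with SFFV/sh-CTRL. The share was 0.579% ± 0.00963 (n = 5) with EF1a/sh-XIAP and 0.581% ± 0.0196 (n = 6) with EF1a/sh-CTRL. Both differences were smaller than the SD of a group. By day the share was 0.575% ± 0.0212 (n = 10) at day 4, 0.584% ± 0.0188 (n = 10) at day 10 and 0.580% ± 0.0186 (n = 11) at day 13. The mean log2 CPM of the 37 genes (prior count of 2) on days 10 and 13 was 6.80 with SFFV/sh-XIAP, 6.71 with SFFV/sh-CTRL, 6.74 with EF1a/sh-XIAP and 6.75 with EF1a/sh-CTRL. It was 6.74, 6.76 and 6.75 on days 4, 10 and 13. In these bulk libraries, fewer cells in S phase and less of these RNAs per cell cannot be told apart.

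The share was higher in deeper libraries. It was 0.529 to 0.571% (median 0.552%) in the 4 libraries under 400000 UMIs and 0.547 to 0.609% (median 0.583%) in the other 27. Across the 31 libraries, Pearson's r between the share and log2 total UMIs was 0.613 (Spearman's rho 0.601), 0.568 without the 2 libraries farthest from the median depth, and 0.435 over the 27 libraries of at least 400000 UMIs. Within days 4, 10 and 13 it was 0.867 (n = 10), 0.726 (n = 10) and 0.779 (n = 11). After thinning every library to 312852 UMIs, r with the original depth was 0.639. Thinning at random leaves a share unchanged on average, so that value is no check of the relation. Points from the same group share a construct and a day, and the part of depth in the levels below was not tested beyond the fits named there. The SFFV/sh-XIAP libraries at day 13 held shares of 0.609, 0.603 and 0.583% at 1063954, 787007 and 630726 UMIs. The SFFV/sh-CTRL libraries of that day held 0.558 and 0.564% at 351081 and 484714 UMIs, so that day's higher share went with deeper libraries.

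Strong XIAP KD was compared with its control on days 10 and 13 (SFFV/sh-XIAP minus SFFV/sh-CTRL, 6 against 4 libraries). XIAP had too few UMIs in these libraries to detect a reduction of its RNA, so the comparison is one of constructs. The study showed the knockdown on XIAP protein, which was not measured in these libraries. None of the 37 genes was called by limma-voom at an adjusted p of at most 0.25, where 14 of 17683 genes tested, 0.0792%, were called, and 0 of 37 by edgeR's quasi-likelihood test or DESeq2. At an unadjusted p under 0.05, 2 of the 37 genes passed, both higher, and 5.58% of all genes did. Fold changes were positive for 21 and negative for 16 genes, with a median log2 fold change of 0.04 where the median of all genes tested was −0.02.

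RRM2, the regulated subunit of ribonucleotide reductase (chromosome 2, 10120698 to 10131419, GRCh38, plus strand), had the smallest p. Its level in SFFV/sh-CTRL was 208 and 238 CPM at day 10 and 181 and 178 CPM at day 13. With SFFV/sh-XIAP it was 198 CPM at the lowest, 244 at the median and 257 at the highest. The lowest SFFV/sh-XIAP value, from the library of 312852 UMIs, lay below 2 of the 4 control values, so the groups overlapped. The log2 fold change was 0.22 (standard error 0.0889, fold 1.16, 95% interval 1.03 to 1.32, limma-voom adjusted p = 0.788), and it was 0.16 with log2 total UMIs as a covariate. On day 10 alone the log2 fold change of RRM2 was 0.07 and on day 13 alone 0.42, and neither passed.

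MCM4, a helicase subunit (chromosome 8, 47960185 to 47978160, plus strand), was at 160.2 and 200.2 CPM in the SFFV/sh-CTRL libraries of day 10 and at 184 and 178 CPM in those of day 13. With SFFV/sh-XIAP it ran from 189 through a median of 212 to 233 CPM. Only 1 SFFV/sh-XIAP library, the shallowest, lay within the control range. The log2 fold change was 0.20 (standard error 0.0933, fold 1.15, interval 1.01 to 1.31, limma-voom adjusted p = 0.853). In the same comparison the remaining helicase subunits had log2 fold changes of 0.07 (MCM2), 0.11 (MCM3), −0.0074 (MCM5), 0.05 (MCM6) and 0.10 (MCM7), so that the 6 subunits of 1 complex ran from −0.0074 to 0.20.

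On the lower side stood CDCA7, a partner of the chromatin remodeler HELLS, with a log2 fold change of −0.18 (standard error 0.106), and USP1 with −0.13 (0.0974), and neither passed. TYMS gave the tightest value, a fold of 0.999 with a 95% interval from 0.922 to 1.08. PCNA had a fold of 0.955 (0.861 to 1.06) and RRM1 of 1.03 (0.903 to 1.17). The 95% interval stayed within a 2-fold change either way for all 37 genes and within 1.5-fold for 27, and the widest was that of CCNE2, 0.971 to 1.81. A 2-fold change of any of the 37 genes therefore lay outside its interval.

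**Figure D1:**
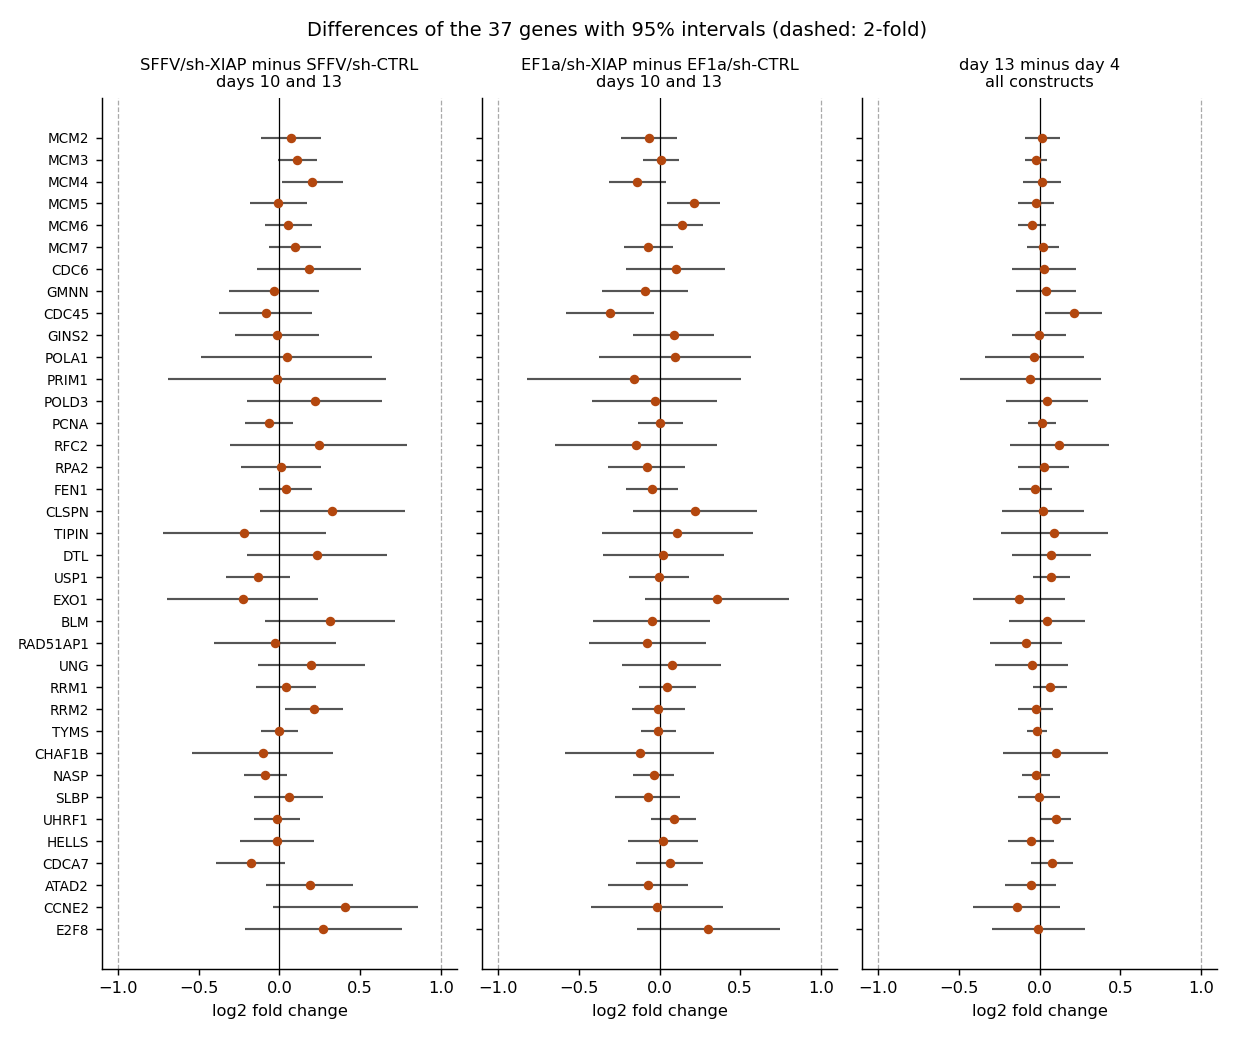
log2 fold changes with 95% intervals (limma-voom) of the 37 genes, ordered by role, for strong and moderate XIAP KD on days 10 and 13 and for day 13 minus day 4. All points lie between the dashed lines of a 2-fold change, and none passed an adjusted p of 0.25.

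Moderate XIAP KD on days 10 and 13 (EF1a/sh-XIAP minus EF1a/sh-CTRL, 5 against 6 libraries) also called 0 of 37 genes by limma-voom, with 3 of 17683 genes called in all (0.017%), and 0 by edgeR and DESeq2. Without adjustment, 3 of the 37 had p under 0.05, 2 of them higher, and so did 4.62% of all genes. MCM5 had 163 to 215 CPM (median 188) with EF1a/sh-CTRL, and 203, 204, 204, 224 and 233 CPM with EF1a/sh-XIAP, and the ranges overlapped. Its log2 fold change was 0.21 (standard error 0.0813, fold 1.16, interval 1.03 to 1.30, limma-voom adjusted p = 0.992). MCM6 had a log2 fold change of 0.14 (0.066) and MCM4 of −0.14 (0.0875). CDC45 (chromosome 22, 19479459 to 19520612, plus strand) was lower by value, from 64.3 to 102 CPM (median 88.2) with EF1a/sh-CTRL and 61.7, 69.3, 71.0, 71.7 and 86.0 CPM with EF1a/sh-XIAP, a log2 fold change of −0.31 (0.134) that did not pass. TYMS had a fold of 0.995 (interval 0.924 to 1.07), and 32 of 37 intervals stayed within 1.5-fold.

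The difference between strong and moderate KD was tested directly in the same fit, and 0 of 37 genes were called by limma-voom, edgeR or DESeq2, where limma-voom called 1 of 17683 genes (0.00566%). Of the 37, 1 had an unadjusted p under 0.05, against 5.06% of all genes. MCM4, with 0.20 for strong and −0.14 for moderate KD, differed by 0.34 (standard error 0.128), and RRM2 by 0.22 (0.121). On the lower side EXO1, a nuclease, differed by −0.58 (0.32) and MCM5 by −0.22 (0.12). The intervals were wider here, with 32 of 37 within 2-fold. Between the promoters in the controls (SFFV/sh-CTRL minus EF1a/sh-CTRL, days 10 and 13) limma-voom called 0 of 37, and 1 of 17683 genes (0.00566%), with 0 by edgeR and DESeq2. There, 2 of the 37, both higher, had an unadjusted p under 0.05 (5.16% of all genes). UHRF1 had a log2 fold change of 0.16 (0.0745), CDCA7 of 0.23 (0.108), DTL, which marks proteins for destruction on PCNA, of −0.35 (0.215), and RRM2 of −0.15 (0.0912). The promoter difference of UHRF1 was 0.26 on day 10 alone and 0.03 on day 13 alone, and that of CDCA7 was 0.03 and 0.42, with none past the threshold.

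At day 4 (2 libraries of each sh-XIAP construct, 3 of each control) limma-voom called 0 of 37 genes for strong KD, where 2 of 18336 genes (0.0109%) were called. It called 0 of 37 for moderate KD, where 9 genes (0.0491%) were called, and 0 of 37 between the promoters, where 3 genes (0.0164%) were called. edgeR and DESeq2 called 0 of 37 in each. An unadjusted p under 0.05 was reached by 2 of 37, both lower, for strong KD (4.72% of all genes), and by 0 of 37 for moderate KD (4.5%) and for the promoters (4.33%). UHRF1 (chromosome 19, 4903080 to 4962154, plus strand) had 368, 374 and 351 CPM with SFFV/sh-CTRL and 315 and 289.5 CPM with SFFV/sh-XIAP, and these ranges did not overlap. Its log2 fold change was −0.29 (standard error 0.0931, fold 0.82, interval 0.72 to 0.934, limma-voom adjusted p = 0.978). GINS2, a subunit of the GINS complex, was at 114, 102 and 133 CPM in the controls and at 93.2 and 91.6 CPM with SFFV/sh-XIAP, a log2 fold change of −0.34 (0.167).

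With so few libraries, ranges often fail to overlap: 12 of the 37 did so for strong KD and 7 for moderate KD, where 18.9% of all genes tested did in each, and 2 did between the promoters, where 9.21% did. On days 10 and 13, 0 of the 37 failed to overlap for strong KD, moderate KD or the promoters, where 1.33%, 0.385% and 1.04% of all genes did. On the higher side of strong KD at day 4 stood RFC2, a subunit of the clamp loader, with a log2 fold change of 0.44 (0.271), and CCNE2 with 0.30 (0.219). For moderate KD, CCNE2 had 0.38 (0.229), FEN1, the flap nuclease, 0.16 (0.0991), CDCA7 −0.23 (0.12) and MCM4 −0.22 (0.119). Between the promoters, MCM2 had 0.17 (0.0978), UHRF1 0.12 (0.0784), ATAD2 −0.24 (0.149) and MCM3 −0.08 (0.0664).

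Whether the strong KD difference moved from day 4 to the later days was tested as an interaction, and limma-voom called 0 of 37 genes where 4 of 17676 (0.0226%) were called, with 0 by edgeR and DESeq2. An unadjusted p under 0.05 was found for 3 of 37, all higher, and for 5.23% of all genes. CLSPN, claspin, which links stalled forks to CHK1 (chromosome 1, 35720218 to 35769967, minus strand), had 41.0, 40.9 and 41.9 CPM with SFFV/sh-CTRL and 29.7 and 27.9 CPM with SFFV/sh-XIAP at day 4. On days 10 and 13 it had 35.1, 43.9, 17.2 and 36.5 CPM with SFFV/sh-CTRL and 34.4 to 54.9 CPM (median 43.2) with SFFV/sh-XIAP. Its change was 0.88 (standard error 0.332), and 0.65 without the 4 libraries under 400000 UMIs, the lowest value, 17.2 CPM, resting on 6 UMIs. UHRF1 changed by 0.28 (0.114) and MCM4 by 0.34, while USP1 had −0.25 (0.149) and CDCA7 −0.23 (0.156), and the adjusted p of the 37 genes was at least 0.935. Both controls together changed from day 4 to later by a median of −0.02 over the 37 genes, with 0 called by limma-voom, edgeR and DESeq2 where limma-voom called 41 of 17676 (0.232%), and with 0 of 37 at an unadjusted p under 0.05 (6.53% of all genes). CDC45 had 0.16 (0.113), USP1 0.09 (0.07), CLSPN −0.22 (0.147) and TYMS −0.05 (0.0403) in that comparison.

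Time was the comparison with the most libraries. Between day 13 and day 4, over all constructs, limma-voom called 0 of 37 genes where 90 of 17676 (0.509%) were called. It called 0 of 37 between day 10 and day 4, where 46 (0.26%) were called, and 0 of 37 between day 13 and day 10, where 4 (0.0226%) were called. edgeR and DESeq2 called 0 of 37 in each. Unadjusted p-values under 0.05 were found for 2 of 37, both higher, for day 13 minus day 4 (6.46% of all genes), for 2, both higher, for day 13 minus day 10 (5.98%), and for 0 for day 10 minus day 4 (6.31%). Ranges overlapped for all 37 genes in the 3 comparisons of days, where 0.0113%, 0.0226% and 0% of all genes failed to overlap.

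CDC45 was at 57.7 to 91.1 CPM (median 73.7) at day 4, 57.2 to 89.3 (median 69.9) at day 10 and 69.3 to 102 (median 85.1) at day 13. Its log2 fold change was 0.21 (standard error 0.0879, fold 1.16, interval 1.02 to 1.31, limma-voom adjusted p = 0.687) from day 4 to day 13 and 0.24 (0.091) from day 10 to day 13. UHRF1 ran from 284 to 374 CPM (median 355) at day 4 and from 321 to 419 CPM (median 359) at day 13, a log2 fold change of 0.10 (0.0474). On the lower side MCM6 had −0.05 (0.0424) and CCNE2 −0.14 (0.133) from day 4 to day 13, and CCNE2 −0.21 (0.133) and MCM5 −0.08 (0.0559) from day 10 to day 13. From day 4 to day 10, POLD3, a subunit of DNA polymerase delta, had 0.16 (0.13), the transcriptional repressor E2F8 0.16 (0.146), ATAD2 −0.12 (0.0846) and TYMS −0.05 (0.0339). TYMS had a fold of 0.99 from day 4 to day 13, with an interval from 0.947 to 1.03, and the intervals of all 37 genes stayed within 1.5-fold.

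Read by role for strong KD on days 10 and 13, the 8 licensing genes had 6 positive and 2 negative log2 fold changes, from −0.03 (GMNN) to 0.20 (MCM4). The 9 replisome genes had 5 positive and 4 negative, from −0.09 (CDC45) to 0.24 (RFC2), and the 3 genes of nucleotide supply 2 and 1, from −0.0018 (TYMS) to 0.22 (RRM2). Chromatin genes had 2 positive and 5 negative, from −0.18 (CDCA7) to 0.19 (ATAD2). Repair and checkpoint genes had 2 positive and 2 negative each, and the regulators CCNE2 and E2F8 both had positive values, 0.41 and 0.27. Summed over the licensing genes, the level was 1922 ± 62.9 CPM (SD, n = 6) with SFFV/sh-XIAP, 1773 ± 45.4 (n = 4) with SFFV/sh-CTRL, 1856 ± 64.1 (n = 5) with EF1a/sh-XIAP and 1871 ± 74.1 (n = 6) with EF1a/sh-CTRL. The SFFV/sh-CTRL sum, lowest of the 4, had 1740 to 1840 CPM in its libraries, and that of SFFV/sh-XIAP 1817 to 1993. The ranges overlapped only through the SFFV/sh-XIAP library of 312852 UMIs, at 1817 CPM. These SFFV/sh-CTRL libraries held 351081 to 520334 UMIs and those of SFFV/sh-XIAP 312852 to 1148669, and the part of depth in this sum was not tested.

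Other genes of the pathway and of the cycle, listed apart, gave few calls as well. Of 61 other replication genes, 0 were called in any of the 12 comparisons by limma-voom, with the smallest p for strong KD on days 10 and 13 in CHAF1A and CHTF18 on the higher side (log2 fold changes of 0.22 and 0.23) and in RFC3 and MCM8 on the lower side (−0.25 and −0.37). At an unadjusted limma-voom p under 0.05, 0 of the 61 passed there, and 2 of 45 G2 and mitosis genes did, both higher (5.58% of all genes). In the strong KD change from day 4 to later, 6 of the 45, all higher, and 0 of the 61 did (5.23% of all genes). None of the 45 was called by limma-voom in these 2 comparisons. From day 4 to day 13 limma-voom called 1 of the 45, HMGB2, a chromatin protein. It rose from 1277 ± 45.4 CPM (n = 10) to 1387 ± 76.7 (n = 11), a fold of 1.09 (interval 1.06 to 1.12, limma-voom adjusted p = 0.000579, edgeR adjusted p = 0.282). It was called in the controls' change from day 4 to later as well (0.11, limma-voom adjusted p = 0.125, edgeR adjusted p = 0.686). Of the 11 precursor B markers, IGLL1, a part of the pre-B-cell receptor, was called between the same days, with a log2 fold change of 0.14 from day 4 to day 13 (limma-voom adjusted p = 0.00175, edgeR adjusted p = 0.325).

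Among 20 genes that brake the cycle or steer S-phase entry, of which 19 were tested, CDKN1A (p21) fell from day 4. It was at 436 ± 22.3 CPM (SD, n = 10) at day 4, 361 ± 23.1 (n = 10) at day 10 and 368 ± 32.3 (n = 11) at day 13. The fold from day 4 to day 10 was 0.827 (interval 0.78 to 0.878, limma-voom adjusted p = 8.88e-05) and that to day 13 was 0.83 (0.786 to 0.877, adjusted p = 4.06e-05). Beside this, the 37 S-phase genes had a median log2 fold change of 0.02 from day 4 to day 10 and of 0.01 from day 4 to day 13. The fall of CDKN1A between these days was called by limma-voom, edgeR and DESeq2 and without any 1 of the 31 libraries. CDKN1A did not pass for strong or moderate KD.

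The correlation of each gene's log2 CPM with the mean of the other members over 31 libraries ran from −0.30 (GMNN) to 0.56 (MCM3), with a median of 0.18, and RRM2 had 0.53. The mean log2 CPM of the 37 correlated with that of the other replication genes (0.638) and with that of the G2 and mitosis genes (0.604), and all 3 correlated with depth (r of 0.62, 0.681 and 0.513 with log2 total UMIs). By the rule of likeness, Pearson's r with the mean of the 37 over 31 libraries, the 5 genes of 1746 compared that were most alike were MT-CO3 (0.702), ENSG00000269968 (0.67), RPS16 (0.657), RPLP0 (0.65) and DANCR (0.632). These are descriptions over libraries that share depth and day.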

How the data were processed

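NALM-6 cells transduced with 4 constructs were profiled by prime-seq in 31 libraries. The authors deposited raw UMI counts, whole numbers per gene and sample without normalization; the submitters' processing notes name STAR 2.6.0a and human and mouse builds (hg38, mm10), and the annotation and counter behind the table are not given in the sources. Construct, day and replicate were read from the labels. All 31 libraries were kept, since the study does not name the samples its methods exclude. The members and lists were chosen with earlier results of these data known, although the rule for the members uses no measured value.

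Genes over 1 CPM in at least 1/3 of the fitted libraries were tested with limma-voom after TMM normalization, with construct and day as terms and an adjusted p of at most 0.25 (Benjamini-Hochberg over all genes tested). Days 10 and 13 were fitted together, day 4 apart, and days and interactions over all libraries. The fits ran in limma 3.58.1, DESeq2 1.42.0 and edgeR 4.0.16 under R 4.3.3 and were tested on simulated data. CPM were TMM-scaled, except for XIAP and the cell type markers, whose CPM are raw; mean log2 CPM used a prior count of 2. Sums and means over the 37 genes carry no p. Alternatives were edgeR, DESeq2, other normalizations and filters, a depth covariate, a replicate block and each library left out; a fit of libraries of at least 400000 UMIs was added after the data had been seen. Named were the 2 genes of smallest p in each direction of a comparison, the MCM2 to MCM7, PCNA, TYMS, RRM1 and RRM2 genes, XIAP, and the 5 genes most like the set. The other replication genes were named by the same rule for strong KD on days 10 and 13 only. From the G2 and mitosis, brake and precursor B lists, test results were given only for genes that were called. Intervals cover counting error and the fitted spread of these libraries only. Rows of 12 processed pseudogenes named after members held up to 336 UMIs (NASPP1, against 7525 of NASP), and reads shared with them may be split. Gene coordinates are from a GENCODE annotation of GRCh38 and promoters from RefSeq (GRCh38.p14). One marker of the precursor B list is not reported here.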

Additional observations from a re-analysis of the deposited data

Results flagged for a closer look

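In the 84 groups of values examined (14 measures of the S-phase genes and related lists), 4 had a library that lay far from the others by Dixon's criterion, and chance gives such a distance in about 1 of 20 groups. The mean log2 CPM of the 37 S-phase genes was 6.68 in SFFV/sh-XIAP D10 replicate 2, below the nearest of the other SFFV/sh-XIAP libraries of days 10 and 13 at 6.79. The mean of the other replication genes was 5.86 in the same library, with the nearest at 5.97. This library had 312852 UMIs, the lowest total of the 31. MCM2 stood at 271.8 CPM in SFFV/sh-XIAP D13 replicate 2, where the nearest library of that construct on these days had 231 CPM. RRM1 stood at 257 CPM in EF1a/sh-CTRL D10 replicate 3, where the nearest had 215 CPM.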

How the results depend on the processing

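No setting called any of the 37 S-phase genes: 0 in all 128 combinations of a comparison with a setting, and a range of 0 to 0 over the 269 with 1 library left out. The fits with the replicate block gave 0 of 37 in every comparison. Residuals of same-numbered libraries of different groups correlated between −0.051 and 0.048, and those of other pairs between −0.06 and 0.046. With most of the spread near counting error, these correlations cannot show whether same-numbered libraries were paired. The block moved the count over all genes for strong KD from 14 to 7 on days 10 and 13 and from 2 to 25 at day 4.

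Counts over all genes, beside which the 0 of 37 stands, depended on the fit, and the cause was not tested. For strong KD on days 10 and 13 the 14 calls of limma-voom became 48 by edgeR, 0 by DESeq2, 30 with DESeq2 size factors, 5 without TMM, 4 without the filter, 21 with filterByExpr, 3 with the depth covariate, 11 in libraries of at least 400000 UMIs and 19 on either day alone. With 1 library left out they ran from 2 (without SFFV/sh-CTRL D13 replicate 2) to 45 (without SFFV/sh-XIAP D10 replicate 2). The count for day 10 minus day 4 went from 46 to 8868 without the filter and to 100 with the covariate, and that for day 13 minus day 4 ran from 75 to 129. The median log2 fold change of the 37 genes for strong KD was 0.0014 with the covariate and 0.095 on day 13 alone, against 0.04.

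The mean log2 CPM of the 37 genes moved with its settings. With a prior count of 0.5 it was 6.69 for EF1a/sh-XIAP on days 10 and 13 and for day 4. With a prior count of 5 on these days it was 6.84 (EF1a/sh-CTRL), 6.83 (EF1a/sh-XIAP), 6.80 (SFFV/sh-CTRL) and 6.89 (SFFV/sh-XIAP), and 6.83, 6.85 and 6.84 on days 4, 10 and 13. After thinning to 312852 UMIs it was 6.81 (EF1a/sh-CTRL), 6.82 (EF1a/sh-XIAP), 6.79 (SFFV/sh-CTRL) and 6.80 (SFFV/sh-XIAP), and 6.74, 6.83 and 6.78 on days 4, 10 and 13. The call of HMGB2 between days 13 and 4 was lost by edgeR, and that in the controls also by DESeq2, in libraries of at least 400000 UMIs and without SFFV/sh-CTRL D10 replicate 1 or D13 replicate 1, each with the same direction. At 242 to 10711 UMIs per gene, small changes of the rarer genes were not detectable.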
